A study of Mus musculus with 12 samples.

Results

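Non-homologous end joining rejoins the ends of broken DNA without a template, and 9 of its core genes were followed here in mouse pancreatic islets: Xrcc6, Xrcc5, Prkdc, Dclre1c, Xrcc4, Lig4, Nhej1, Poll and Polm. The members were taken by name from the pathway and matched through their Ensembl identifiers, and that matching uses no measured value. They were, however, chosen with earlier results of these data known. All 9 were found among the 38561 rows of the count table, and all 9 were among the 15352 genes with enough counts to be tested. Islets came from 3 mice in each of 4 groups. The groups were NOD_insHEL (NOD/LtJ with the insHEL transgene), NOD (NOD/LtJ without it), B10_insHEL (C57BL/10SnSg with the transgene) and B10 (C57BL/10SnSg without it). All 12 mice were normoglycaemic males of 11 weeks, carried the MHC k haplotype and were labelled Rag-/- (allele written as 129S7(B6)-Ragtm1Mom), so every group lacks mature lymphocytes by design. The transgene, ILK3mHEL line 3Ccg, makes hen egg lysozyme as a membrane protein under an insulin promoter, which places it in beta cells. Transcription inhibitors (α-amanitin and actinomycin D) were present while the islets were isolated in all groups. The comparisons ask how the 2 strains differ with and without the transgene, and how the transgene changes islets of each strain.

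In end joining, the ring-shaped Ku heterodimer, made of the products of Xrcc6 (Ku70) and Xrcc5 (Ku80), slides onto a broken end and recruits the kinase DNA-PKcs, the product of Prkdc. DNA-PKcs activates Artemis, the nuclease made from Dclre1c, which opens hairpins and trims ends, and the polymerases lambda (Poll) and mu (Polm) fill short gaps. XRCC4, held together with DNA ligase IV (Lig4) and aligned by XLF (Nhej1), completes the joint. The same reaction joins the breaks that RAG proteins make in antigen receptor genes, a step that Rag-/- lymphocyte precursors do not reach; in long-lived, rarely dividing cells such as beta cells it is the main way to repair double-strand breaks.

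The libraries held 2212062 to 21138456 counts, the smallest being NOD_insHEL replicate 3 and the largest B10 replicate 2. A count of 0 therefore allowed up to 1.36 CPM, the usual depth-scaled unit of counts, in the shallowest library and up to 0.142 CPM in the deepest, counting error only. Levels are CPM scaled by edgeR's TMM factors. Islet markers dominated, the summed beta cell list reaching 183776 CPM or more in every library, while the 8 genes of the lymphocyte list summed to 4.601 to 6.104 CPM in NOD_insHEL, 6.94 to 10.1 in NOD, 2.48 to 5.05 in B10_insHEL and 4.10 to 4.63 in B10. Of that list the T cell marker Cd3e and the B cell marker Ms4a1 were at 0 in all groups, whereas Ighm, the immunoglobulin mu gene, had 5 to 81 counts and was higher in NOD than in B10 islets by 1.20 (log2, adjusted p 0.00455); its part in the results was not tested. Rag2 was at 0 in all 12 libraries and Rag1 had 13 to 141 counts; the label does not say which Rag gene was deleted, so neither checks it. The summed CPM of 18 acinar genes ran over 148 to 193 in NOD_insHEL, 207 to 340 in NOD, 187 to 2561 in B10_insHEL and 3625 to 4575 in B10. Endothelial genes (8 in the list) summed to 887 to 1058 CPM in NOD_insHEL, 1171 to 1671 in NOD, 967 to 1012 in B10_insHEL and 823 to 884 in B10. The sample numbers of the 3 B10 libraries also form a range of their own, above the 1 to 29 of the other 9 libraries, so in the comparisons with B10 the strain or transgene cannot be told apart from whatever that numbering stands for. The comparison of NOD_insHEL with B10_insHEL lies within the lower numbers. In whole islets, fewer cells of a type and less RNA per cell cannot be told apart.

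The proximal promoters of 3 members are shown because the results below turn on Xrcc6, on its Ku partner Xrcc5 and on Xrcc4, the scaffold of the ligation step. Sequences are RefSeq's for GRCm38.p6, from 250 bases before to 50 bases after the annotated start, 5′ to 3′ on the gene's strand, and they are the reference assembly's letters, not those of NOD or B10 mice. Capitals mark GGGCGG (the GC box), CCGGAA (the ETS core) and CCAAT (the CCAAT box) on either strand. No 2 capital runs overlap. The starts used for Xrcc5 and Xrcc4 are also the starts of their annotated gene spans. That of Xrcc6, position 82016369, lies inside its annotated span, which begins at 81987835, so its window is not at the start of that span.
Xrcc6, chr15:82016119-82016418, plus strand: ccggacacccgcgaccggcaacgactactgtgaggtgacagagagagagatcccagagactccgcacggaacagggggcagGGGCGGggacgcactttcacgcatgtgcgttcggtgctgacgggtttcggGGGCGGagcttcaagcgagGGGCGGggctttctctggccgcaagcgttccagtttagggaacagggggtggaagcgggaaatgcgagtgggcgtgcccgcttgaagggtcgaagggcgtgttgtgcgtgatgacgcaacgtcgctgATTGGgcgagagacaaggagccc
Xrcc5, chr1:72307171-72307470, plus strand: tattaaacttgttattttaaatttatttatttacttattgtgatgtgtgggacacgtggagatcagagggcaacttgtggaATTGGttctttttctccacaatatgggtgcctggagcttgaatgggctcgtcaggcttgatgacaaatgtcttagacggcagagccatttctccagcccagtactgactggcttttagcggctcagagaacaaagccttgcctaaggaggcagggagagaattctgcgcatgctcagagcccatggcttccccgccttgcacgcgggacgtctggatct
Xrcc4, chr13:90089559-90089858, minus strand: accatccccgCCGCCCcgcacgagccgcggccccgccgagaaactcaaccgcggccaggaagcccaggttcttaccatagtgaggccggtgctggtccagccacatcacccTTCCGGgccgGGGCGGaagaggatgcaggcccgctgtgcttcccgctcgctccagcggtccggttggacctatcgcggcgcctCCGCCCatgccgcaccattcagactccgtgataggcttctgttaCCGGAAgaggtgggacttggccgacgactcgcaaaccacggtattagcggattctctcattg
The Xrcc6 window held 3 GC boxes and 1 CCAAT box, the Xrcc5 window 1 CCAAT box and no GC box, and the Xrcc4 window 3 GC boxes and 2 ETS cores. Of 32851 promoters of that length in the table, 35.7% held a GC box, 14.9% an ETS core and 37.4% a CCAAT box. CpG pairs numbered 30 in the Xrcc6 window, 9 in that of Xrcc5 and 31 in that of Xrcc4, against a median of 7 over all promoters. An entry existed for 7 of the 9 members, and those of Prkdc and Poll were missing. These matches describe the letters only.

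To compare genes with each other, levels were divided by exon length (CPM per kb). Exon length counts every exon base of any annotated transcript, 4476 bp over 12 transcripts for Xrcc6 and 2555 bp over 1 for Xrcc5. The order between genes therefore depends on the annotation. Over the 12 libraries Xrcc5 was highest at 17.3 ± 1.95 CPM per kb (SD, n = 12), at the 85th percentile of 13570 protein-coding genes tested, followed by Xrcc6 at 7.18 ± 2.65, Poll at 6.20 ± 0.918 and Polm at 4.71 ± 0.625. Lig4 stood at 4.09 ± 0.503, Prkdc at 3.50 ± 0.422, Xrcc4 at 3.13 ± 0.469, Dclre1c at 2.02 ± 0.382 and Nhej1 at 1.48 ± 0.585 CPM per kb. Xrcc5 stood above the next gene, and Xrcc4 above Dclre1c, in 12 of 12 libraries. Neighbours elsewhere changed places in some: Poll was above Polm and Lig4 above Prkdc in 11, Polm above Lig4 in 10, and Prkdc above Xrcc4 and Dclre1c above Nhej1 in 9. Xrcc6 stood above Poll in 7 of 12, namely 1 of the 6 NOD-background libraries and 6 of the 6 B10-background libraries. Xrcc6 was also the member with the widest spread between libraries apart from Nhej1, its highest level being 2.57 times its lowest. For Nhej1, whose libraries held only 5 to 37 counts, that ratio was 2.76, and for the other 7 members it lay between 1.45 and 2.18.

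Xrcc6, which encodes Ku70, was about 2-fold lower in NOD-background islets whether or not they carried the transgene. Its level in NOD_insHEL islets was 23.7, 20.6 and 18.8 CPM, and in NOD islets 24.2, 20.3 and 19.9 CPM. B10_insHEL islets had 39.5, 36.4 and 46.2 CPM, and B10 islets 44.8, 48.3 and 43.0 CPM. Every NOD-background library lay below every B10-background library. The log2 difference averaged over the transgene was -0.999 (SE 0.09, 95% interval -1.20 to -0.80), with an adjusted p of 6.93e-08 by edgeR's quasi-likelihood test with Benjamini-Hochberg adjustment over 15352 genes, the test used throughout. Among transgenic islets the difference, NOD_insHEL minus B10_insHEL, was -0.92 (SE 0.14, interval -1.21 to -0.64, adjusted p 8.22e-05), and without the transgene, NOD minus B10, it was -1.08 (SE 0.13, interval -1.34 to -0.81, adjusted p 4.28e-06). Each of these 3 calls held when any 1 of the 12 libraries was left out and under the 7 other settings tried. With the acinar score as a covariate the averaged difference was -1.14. Within groups that score varied mainly through B10_insHEL replicate 2, so every fit with it rests largely on that library.

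Xrcc6 lies at chr15:81987835-82040085 on the plus strand of GRCm38, and 344 bp of its exons, 7.69% of their length, overlap exons of Desi1 on the opposite strand. The kit keeps strand, but the strand setting of the counting is not given in the sources used here, so reads in that overlap could have been counted for either gene or dropped. Desi1, a deSUMOylating isopeptidase gene, was higher in NOD than in B10 islets, with a log2 difference of 0.40 (SE 0.12, adjusted p 0.0148). Leaving out NOD replicate 1, B10 replicate 1 or B10 replicate 3 ended that call (adjusted p of 0.0883 at most), and adding the acinar covariate gave 0.15 (adjusted p 0.647). The nearest gene tested on the upper side, Snu13, which encodes a spliceosome and small nucleolar RNA binding protein, differed by -0.17 (SE 0.25, adjusted p 0.633), and the pseudogene Gm5805 on the lower side by 0.67 (SE 0.16, adjusted p 0.00490), a value that was 0.31 (adjusted p 0.455) with the acinar covariate. Among transgenic islets, where Xrcc6 differed by -0.92, Desi1 differed by 0.11 (adjusted p 0.617), Snu13 by 0.059 (adjusted p 0.918) and Gm5805 by 0.12 (adjusted p 0.708).

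**Figure D1:**
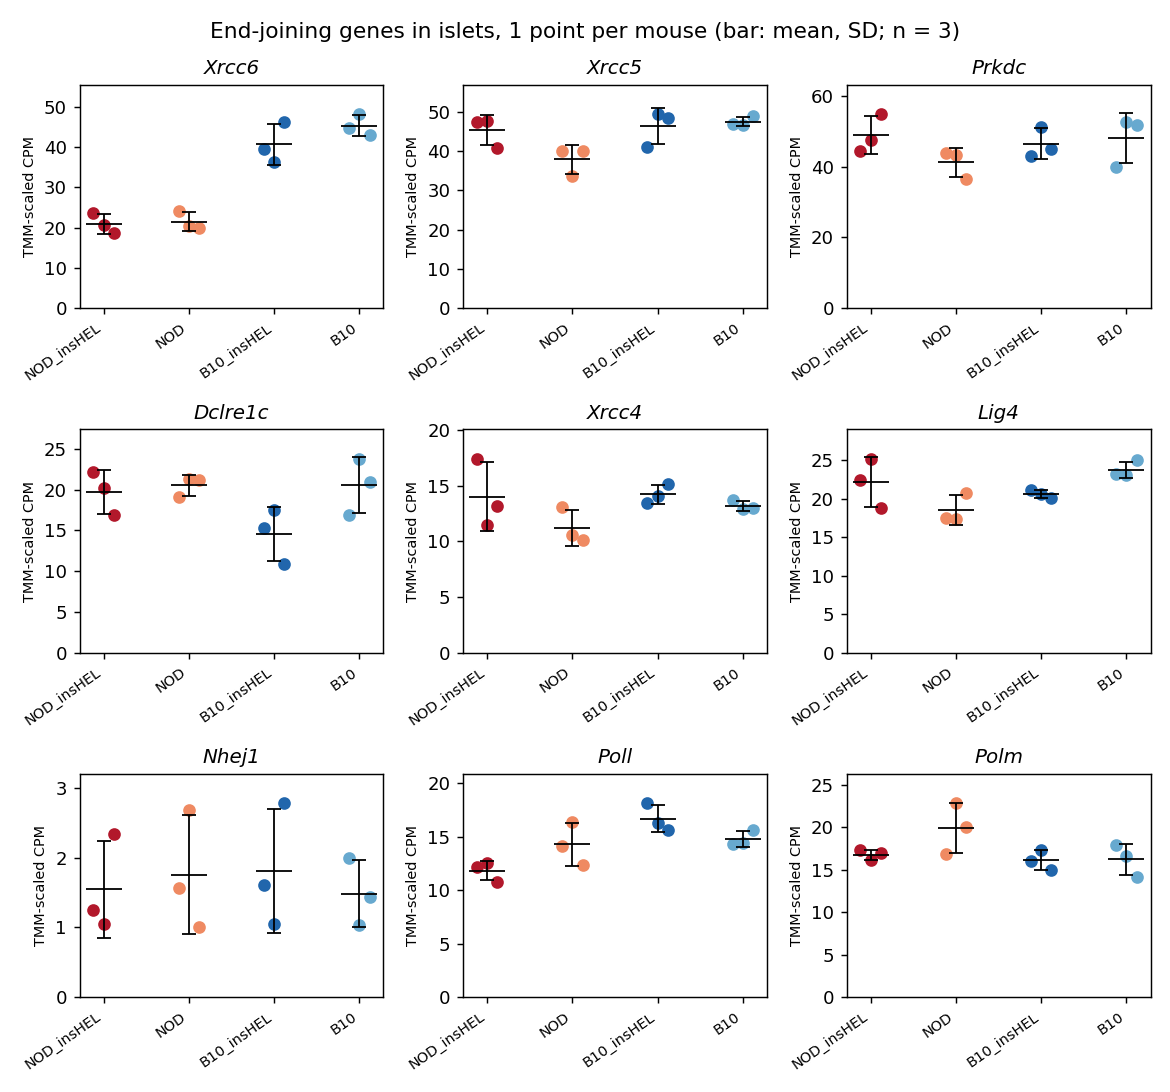
Level of each of the 9 end-joining genes (vertical axis, TMM-scaled CPM, from 0) in the 4 groups, with 1 point per mouse, the horizontal line at the mean and the bar at 1 SD (n = 3). The 6 NOD-background libraries of Xrcc6 sit between 18.8 and 24.2 CPM and the 6 B10-background libraries between 36.4 and 48.3 CPM, while the backgrounds overlap for the other genes. Single pairs of groups do not overlap for some of those, namely Xrcc5, Lig4, Poll and Prkdc.

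Xrcc5, the Ku80 partner, was lower in NOD than in B10 islets by a call that several single libraries decided, and its levels overlapped between strains in transgenic islets. It had 47.4, 47.8 and 40.8 CPM in NOD_insHEL islets and 39.9, 33.6 and 40.0 CPM in NOD islets, against 41.0, 49.4 and 48.5 CPM in B10_insHEL islets and 47.0, 46.6 and 48.8 CPM in B10 islets. The 3 NOD libraries lay below the 3 B10 libraries, while the NOD_insHEL and B10_insHEL libraries overlapped. NOD minus B10 was -0.33 (SE 0.11, interval -0.57 to -0.09, adjusted p 0.0356). Leaving out NOD replicate 2, NOD replicate 3 or any 1 of the B10 libraries ended this call (largest adjusted p 0.165), though the difference itself stayed between -0.39 and -0.25. So did adding the acinar score (adjusted p 0.431) or the number of islets (0.102) to the model, and thinning all libraries to the depth of the shallowest (0.252), with differences of -0.26, -0.34 and -0.26. The thinning was 1 random draw, so all values at equal depth, here and below, also carry the noise of that draw. NOD_insHEL minus B10_insHEL was -0.015 (interval -0.26 to 0.23, adjusted p 0.957), and the averaged difference was -0.17 (interval -0.34 to -0.0012, adjusted p 0.113).

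The Xrcc6 to Xrcc5 ratio within a library, taken per kb, was 0.264 ± 0.0195 in NOD_insHEL islets, 0.325 ± 0.0360 in NOD islets, 0.505 ± 0.0733 in B10_insHEL islets and 0.546 ± 0.0438 in B10 islets (SD, n = 3 each). The highest ratio on the NOD background was 0.346 and the lowest on the B10 background 0.420. The 2 subunit transcripts thus stood in a lower ratio in every NOD-background library. The ratio is a quotient of levels already described and carries no test of its own. Its size depends on the exon lengths used, while its order between libraries does not. Without division by length, the B10 means were 45.4 CPM for Xrcc6 and 47.5 CPM for Xrcc5.

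**Figure D2:**
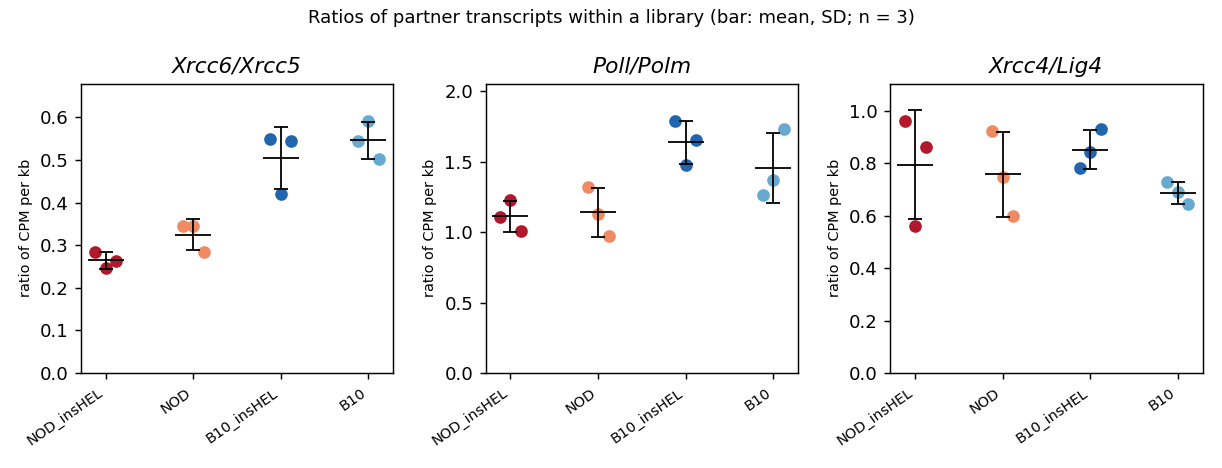
Ratio of 2 partner transcripts within each library (vertical axis, ratio of CPM per kb, from 0) for Xrcc6 to Xrcc5, Poll to Polm and Xrcc4 to Lig4, with 1 point per mouse and the mean and SD (n = 3). The Xrcc6 to Xrcc5 ratios reach at most 0.346 on the NOD background and at least 0.420 on the B10 background, while the Xrcc4 to Lig4 ratios of the 2 backgrounds overlap.

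Prkdc and Dclre1c, the kinase and the nuclease of end processing, passed the threshold in no comparison. Prkdc had 44.4, 47.6 and 54.9 CPM in NOD_insHEL islets and 43.8, 43.2 and 36.6 CPM in NOD islets, against 43.0, 51.4 and 45.1 CPM in B10_insHEL islets and 39.8, 52.7 and 51.7 CPM in B10 islets. Its averaged strain difference was -0.082 (interval -0.27 to 0.11, adjusted p 0.526).

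Dclre1c stood at 22.2, 20.2 and 16.9 CPM in NOD_insHEL islets and at 19.1, 21.4 and 21.2 CPM in NOD islets. It stood at 15.3, 17.5 and 10.9 CPM in B10_insHEL islets and at 16.9, 23.8 and 20.99 CPM in B10 islets. B10_insHEL held the lowest library of all 12, and its range met that of B10. B10_insHEL minus B10 was -0.50 (SE 0.17, interval -0.85 to -0.14, adjusted p 0.0845), and NOD_insHEL minus B10_insHEL was 0.47 (SE 0.18, interval 0.09 to 0.85, adjusted p 0.0997). Without B10_insHEL replicate 2 both passed, with adjusted p of 0.0267 and 0.0404. That replicate had the highest acinar score of its group, 6.43 against 2.28 and 1.79 (mean log2 CPM over the list). With that score in the model the first difference was -0.16 (adjusted p 0.861) and the second 0.62 (adjusted p 0.0323). Without B10_insHEL replicate 3 they were -0.33 (adjusted p 0.344) and 0.31 (adjusted p 0.327). The first also passed with no filter on low counts (0.0339), and neither passed at equal depth (0.252 and 0.479). Exons of Dclre1c overlap those of Suv39h2 on the opposite strand over 357 bp, 3.83% of their length.

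Xrcc4, the scaffold of the ligation step, showed no strain or transgene difference that passed the test. It had 17.4, 11.5 and 13.1 CPM in NOD_insHEL islets and 13.05, 10.5 and 10.1 CPM in NOD islets, and 13.4, 14.1 and 15.2 CPM in B10_insHEL islets and 13.7, 12.9 and 13.02 CPM in B10 islets. The highest and the lowest of the 12 libraries were both on the NOD background, so the strains overlapped. The averaged strain difference was -0.11 (SE 0.12, interval -0.37 to 0.15, adjusted p 0.522), that among transgenic islets 0.0038 (interval -0.37 to 0.38, adjusted p 0.993) and that between NOD and B10 -0.23 (interval -0.58 to 0.13, adjusted p 0.340). NOD_insHEL minus NOD was 0.34 (interval -0.042 to 0.72, adjusted p 0.274) and B10_insHEL minus B10 was 0.11 (interval -0.24 to 0.46, adjusted p 0.765). Xrcc4 occupies chr13:89774027-90089608 on the minus strand, and 112 bp of its exons, 2.66% of their length, overlap Tmem167 on the plus strand.

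Lig4, the ligase that XRCC4 stabilises, had 22.4, 25.2 and 18.8 CPM in NOD_insHEL islets and 17.4, 17.4 and 20.7 CPM in NOD islets, against 21.2, 20.6 and 20.1 CPM in B10_insHEL islets and 23.2, 23.1 and 24.9 CPM in B10 islets. The 3 NOD libraries lay below the 3 B10 libraries, and the transgenic groups overlapped. NOD minus B10 was -0.37 (SE 0.13, interval -0.65 to -0.09, adjusted p 0.0467). This call rests near the threshold: it ended on leaving out NOD_insHEL replicate 1, NOD replicate 1, NOD replicate 2 or any 1 of the B10 libraries (largest adjusted p 0.147). It also ended with no filter on low counts (0.0593), with the replicate block (0.0614), with acinar content (0.317) or islet number (0.159) in the model, where the difference stayed between -0.39 and -0.35, and at equal depth, where it was -0.092 (adjusted p 0.790). NOD_insHEL minus B10_insHEL was 0.13 (interval -0.16 to 0.43, adjusted p 0.607). The transgene difference in NOD minus that in B10 was 0.50 (SE 0.20, unadjusted p 0.0189, adjusted p 0.315), so the strain differences with and without the transgene were not shown to differ. The Xrcc4 to Lig4 ratio per kb was 0.796 ± 0.208 in NOD_insHEL islets, 0.758 ± 0.162 in NOD islets, 0.853 ± 0.0741 in B10_insHEL islets and 0.688 ± 0.0427 in B10 islets (SD, n = 3 each). The backgrounds overlapped in this ratio, while the 3 B10_insHEL libraries lay above the 3 B10 libraries.

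Nhej1 was the scarcest member. It averaged 1.55 ± 0.698 CPM in NOD_insHEL islets and 1.76 ± 0.856 CPM in NOD islets, and 1.81 ± 0.888 CPM in B10_insHEL islets and 1.49 ± 0.479 CPM in B10 islets (SD, n = 3 each). Its averaged strain difference was -0.052 (interval -0.74 to 0.64, adjusted p 0.922), the widest interval among the members.

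Poll and Polm, the gap-filling polymerases, passed the threshold in no comparison. Poll had 12.2, 12.5 and 10.8 CPM in NOD_insHEL islets and 14.1, 16.4 and 12.4 CPM in NOD islets, against 18.2, 16.3 and 15.7 CPM in B10_insHEL islets and 14.3, 14.4 and 15.6 CPM in B10 islets. Its NOD_insHEL libraries lay below all B10_insHEL libraries, but the difference of -0.47 (SE 0.16, interval -0.81 to -0.13) had an adjusted p of 0.0658, and at equal depth it was 0.032 (adjusted p 0.965). That thinning was a random draw and was not repeated, so how far the draw itself moved the value was not tested. The averaged value was -0.25 (interval -0.49 to -0.02, adjusted p 0.0838), and NOD minus B10 was -0.037 (adjusted p 0.996). Polm had 17.3, 16.1 and 16.9 CPM in NOD_insHEL islets and 16.8, 22.8 and 20.0 CPM in NOD islets, against 16.0, 17.3 and 15.0 CPM in B10_insHEL islets and 17.8, 16.5 and 14.2 CPM in B10 islets. The averaged difference of Polm was 0.18 (interval -0.053 to 0.41, adjusted p 0.230). The Poll to Polm ratio per kb was 1.11 ± 0.110 in NOD_insHEL islets, 1.14 ± 0.173 in NOD islets, 1.64 ± 0.153 in B10_insHEL islets and 1.46 ± 0.246 in B10 islets (SD, n = 3 each), and it overlapped between the backgrounds. The overlap lay between NOD and B10, while the 3 NOD_insHEL libraries (at most 1.23) lay below the 3 B10_insHEL libraries (at least 1.48). This ratio, too, carries no test of its own.

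Counted together, 1 of the 9 members (Xrcc6) was lower in NOD_insHEL than in B10_insHEL islets and none was higher, where 12.1% of all genes tested were called and 6.5% were lower. Between NOD and B10, 3 of 9 were lower (Xrcc6, Xrcc5 and Lig4) and none was higher, where 28.4% of all genes were called and 14.9% were lower. Of the 3, Xrcc6 alone kept its call when single libraries were left out. In the averaged strain difference 1 of 9 was lower, where 33.3% of all genes were called and 17.6% were lower. The members' median log2 difference was 0.0038 in transgenic islets, -0.22 between NOD and B10 and -0.11 averaged, against -0.0065, 0.028 and 0.014 over all genes tested. Libraries of the 2 strains did not overlap for 2 members among transgenic islets (Xrcc6 and Poll, both below), where 14.2% of all genes lay wholly below, and for 3 between NOD and B10, where 23.8% did. Of the 17 acinar genes tested, 12 were lower between NOD and B10 and 15 averaged over the transgene, and all 8 endothelial genes were higher between NOD and B10. With the acinar score as a covariate, Xrcc6 alone of the members was called between NOD and B10, though that fit rests largely on B10_insHEL replicate 2. The part of the endothelial genes in the members' differences was not tested.

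The transgene changed none of the 9 members past the threshold in either strain by edgeR, and DESeq2 also called 0. At an unadjusted p under 0.05, Dclre1c was lower in B10_insHEL than in B10 islets (1 of 9), and Xrcc5 was higher in NOD_insHEL than in NOD islets (1 of 9), by 0.28 (SE 0.12, interval 0.03 to 0.53, adjusted p 0.158). At that unadjusted threshold 21.8% of all genes passed for the transgene in B10 and 23.5% in NOD, so 1 of 9 was no more than the background. By adjusted p, 6.85% of all genes were called in B10 and 7.06% in NOD. Libraries did not overlap for Lig4 (below) and Poll (above) in B10, and for Xrcc5 and Prkdc (both above) in NOD, where 26.7% and 26.6% of all genes showed no overlap. The members' median was -0.035 in B10 and -0.0062 in NOD. The interaction called 0 members by edgeR and by DESeq2, where 0.0586% of all genes were called. At an unadjusted p under 0.05 it had 1 of 9 members (Lig4), where 12.2% of all genes passed.

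**Figure D3:**
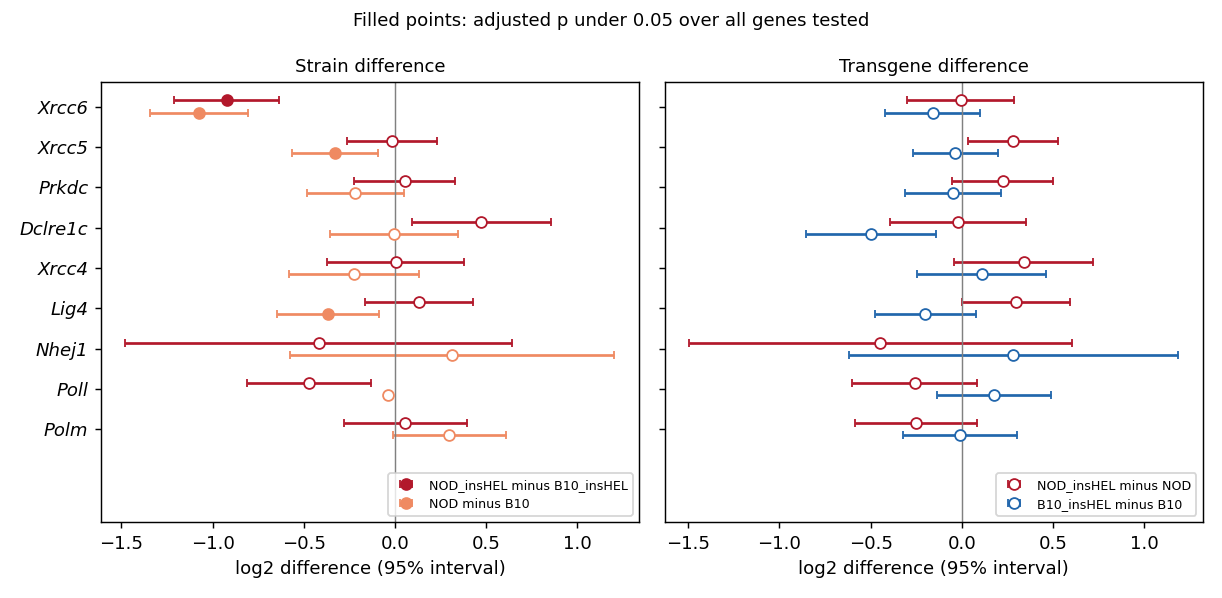
Log2 difference (horizontal axis) with its 95% interval for each of the 9 members, on the left between strains with and without the transgene and on the right between transgenic and non-transgenic islets of each strain. Filled points, Xrcc6 at -0.92 and -1.08 and Xrcc5 and Lig4 at -0.33 and -0.37 between NOD and B10, passed an adjusted p of 0.05, and all points on the right are open; Poll between NOD and B10 has no interval.

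Genes whose profile over the 12 libraries was most like that of Xrcc6 were ranked by the root mean square difference of mean-centred log2 CPM among 12983 protein-coding genes. Man1c1, a Golgi mannosidase gene, came first at 0.102, followed by Pxk, a gene for a kinase-like protein with a PX domain, at 0.129, and Pawr, a gene for an apoptosis regulator, at 0.135, where Xrcc6 itself varied with an SD of 0.518. They lie on chromosomes 4, 14 and 10, and their averaged strain differences were -0.99, -0.85 and -0.85. Strain differences near that of Xrcc6 follow from ranking genes by likeness to its profile, so they are no separate result. For Xrcc4, which varied with an SD of 0.198, the nearest were Slc25a14 (a mitochondrial carrier) at 0.106, Ei24 (an endoplasmic reticulum membrane protein of autophagy) at 0.116 and Ykt6 (a SNARE) at 0.119. These rankings describe 12 libraries in 4 groups and share their depth and scaling.

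Around the core, 3 further lists of pathway genes held, between them, 7 genes that were lower and 2 that were higher on the NOD background. The lists had 11, 14 and 9 genes tested, and of all genes tested 33.3% were called and 17.6% were lower. Of 11 accessory end-joining genes tested, 3 were lower and 1 higher in the averaged strain difference, and the median was 0.13. Tdp2, which removes topoisomerase II adducts from DNA ends, averaged 18.2 ± 4.98 CPM in NOD_insHEL and 18.4 ± 2.27 CPM in NOD islets, against 29.3 ± 3.43 CPM in B10_insHEL and 23.2 ± 1.99 CPM in B10 islets (SD, n = 3 each). Its averaged difference was -0.55 (SE 0.12, adjusted p 0.00133), and at equal depth it was -0.15 (adjusted p 0.489). Wrn, the Werner helicase and exonuclease, differed by -0.44 (SE 0.10, adjusted p 0.00254). With the acinar covariate it was -0.35 (adjusted p 0.132) and at equal depth -0.33 (adjusted p 0.0687). Ercc6l2, a helicase-like factor, differed by -0.18 (SE 0.07, adjusted p 0.0488, kept in only 1 of 12 fits that left out a library, that without B10_insHEL replicate 1). Iffo1, which encodes a lamina protein that holds broken ends in place, rose by 0.32 (SE 0.09, adjusted p 0.00869); the acinar covariate left 0.21 (adjusted p 0.309). Dntt, the template-free polymerase of lymphocytes, had 0 to 2 counts and was not tested.

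Of 14 genes of break chromatin signalling, 3 were lower and none higher, with a median of -0.051. Paxip1, whose BRCT protein PTIP binds 53BP1, averaged 86.8 ± 3.84 CPM in NOD_insHEL and 93.8 ± 6.75 CPM in NOD islets, against 162 ± 44.8 CPM in B10_insHEL and 149 ± 17.1 CPM in B10 islets (SD, n = 3 each), a difference of -0.78 (SE 0.11, adjusted p 2.79e-05) that passed in all 12 fits that left out a library and in the 7 other settings. Atm, the kinase that signals breaks, differed by -0.60 (SE 0.12, adjusted p 0.000689), and with the acinar covariate by -0.41 (adjusted p 0.108). It averaged 51.8 ± 5.44 CPM in NOD_insHEL and 51.5 ± 6.27 CPM in NOD islets, against 62.7 ± 11.4 CPM in B10_insHEL and 97.4 ± 23.4 CPM in B10 islets (SD, n = 3 each). The difference was -0.91 between NOD and B10 (adjusted p 0.000447) and -0.29 among transgenic islets (adjusted p 0.302, not called). Atm was also lower with the transgene in B10, by -0.63 (SE 0.16, adjusted p 0.0240). That value and the averaged one both draw on the B10 group, whose sample numbers stand apart. Nbn, of the MRN end-sensing complex, differed by -0.39 (SE 0.09, adjusted p 0.00224). With the acinar covariate it was -0.37 (adjusted p 0.0679) and at equal depth -0.31 (adjusted p 0.0790). Alternative end joining uses microhomology when the classical route fails, and 9 genes were listed under it, with a median of 0.24. Parp1, the break-sensing polymerase, differed by -0.35 (SE 0.08, adjusted p 0.00262) and Parp3 by 0.76 (SE 0.24, adjusted p 0.0176). Being listed does not restrict a gene to that route, so the Parp3 value is not read as a change of the route. Leaving out NOD_insHEL replicate 2 or NOD replicate 3 ended the Parp3 call (largest adjusted p 0.0581), as did islet number in the model (0.226) and equal depth (0.236). Against these counts, 33.3% of all genes tested were called and the median of all genes was 0.014.

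Within transgenic islets alone, Paxip1 (-0.90, SE 0.16, adjusted p 0.000697), Tdp2 (-0.76, SE 0.17, adjusted p 0.00540) and Parp1 (-0.37, SE 0.12, adjusted p 0.0454) also passed. The averaged difference contains this comparison, so these passes are not separate support for it. In the accessory, break chromatin and alternative end-joining lists, 1 of 11, 1 of 14 and 1 of 9 genes were lower and none was higher. Among transgenic islets 12.1% of all genes tested were called and 6.5% were lower. Tdp2 lost its call there without NOD_insHEL replicate 2 (adjusted p 0.0566) and at equal depth (0.352). The Parp1 call was kept only without NOD_insHEL replicate 1 or B10 replicate 2 and was lost in the other 10 such fits, with the acinar covariate (adjusted p 0.0537) and at equal depth (0.340).

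**Figure D4:**
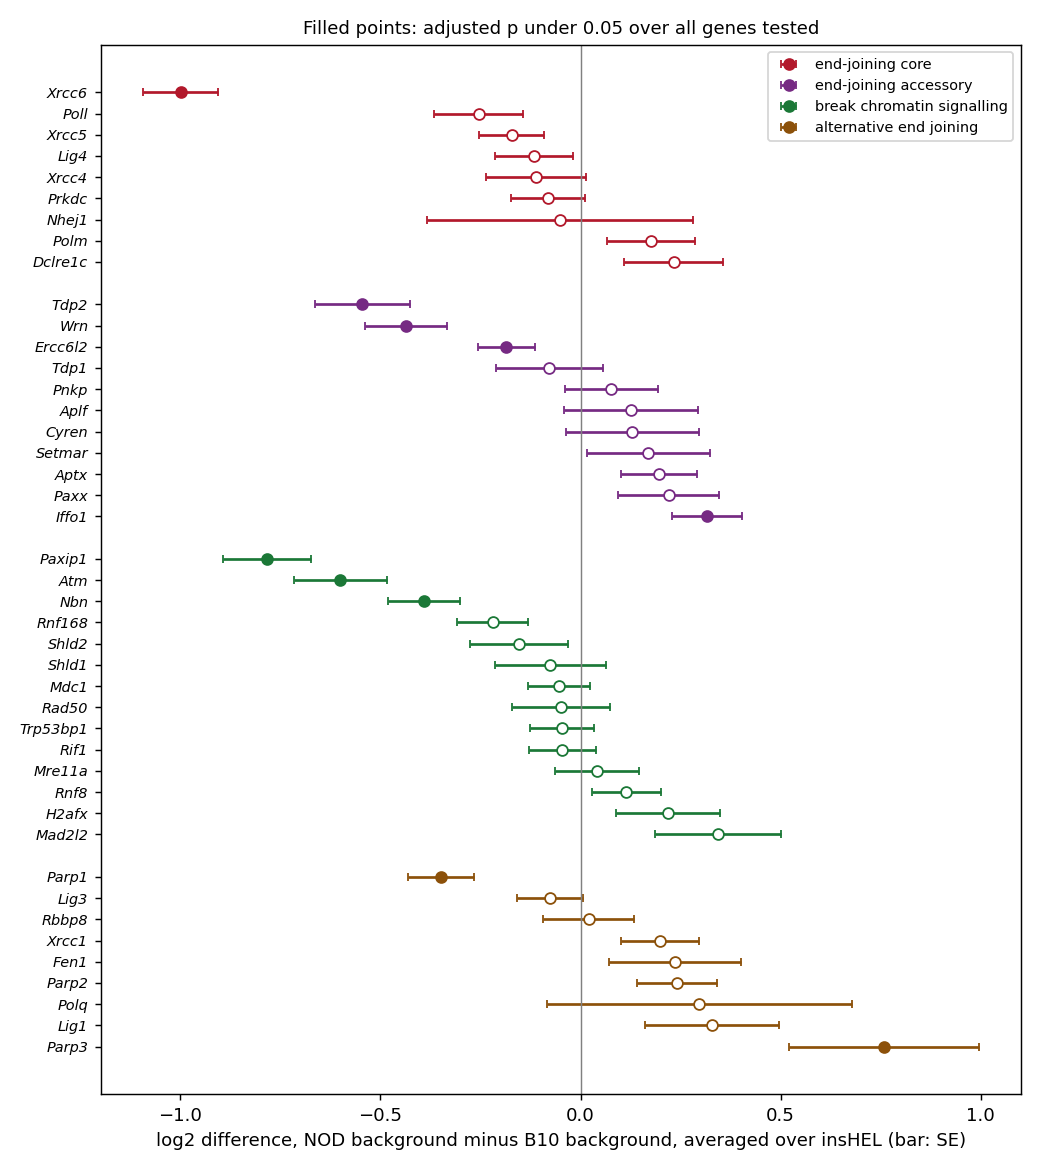
Averaged strain difference (horizontal axis, log2 of NOD background over B10 background, bar 1 SE) for the 9 core genes and 3 further lists of end-joining and break-signalling genes, ordered within each list. Xrcc6 at -0.999 and Paxip1 at -0.78 stand farthest to the left and Parp3 at 0.76 farthest to the right, and filled points passed an adjusted p of 0.05.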

How the data were processed

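RNA was measured in isolated islets of 12 mice, 3 per group as the series' design states, from stranded mRNA libraries per the labels' protocols. The authors deposited raw counts per Ensembl gene, and per the submitters' processing notes cutadapt, TopHat2 2.0.8b, HTSeq and DESeq were used with the GRCm38 build. The annotation release and the strand setting of counting are not given in the sources used here, and how reads of NOD alleles map to that reference was not tested.

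Symbols, exon lengths and coordinates came from GENCODE's GRCm38 annotation (36723 of 38561 identifiers, 95.2%, matched). The deposited counts were tested with edgeR 4.0.16 in R 4.3.3: TMM scaling, the filterByExpr filter, 4 group means over all 12 libraries, robust quasi-likelihood F-tests, two-sided, and Benjamini-Hochberg adjustment over 15352 genes with a threshold of 0.05. SE is the log2 difference divided by the root of F, and intervals use the fit's degrees of freedom; none is given for Poll between NOD and B10, where the p is not that of F. The averaged strain difference is the mean of those with and without the transgene. The script was tested on simulated data. Alternatives were RLE factors, DESeq2 1.42.0, no filter, a replicate block, the acinar score or islet number as a covariate, thinning to 2212062 counts, and leaving out each library. The thinning was a random draw that was not repeated. The acinar score varied little within groups apart from B10_insHEL, so fits with it cannot well separate acinar content from group.

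The members and lists were chosen with earlier results of these data known. Other genes are named if they passed in the averaged strain difference within 3 lists, were nearest to Xrcc4 or Xrcc6 in profile, or flank or overlap a member. No 2 libraries of a group agreed within sampling noise.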

Additional observations from a re-analysis of the deposited data

How the results depend on the processing

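The Xrcc6 difference kept its direction and its side of the threshold in the 3 strain comparisons under every alternative run, between -1.14 and -0.92 averaged over the transgene. A tally under the alternatives was made over the members, the listed genes and the flanking genes of Xrcc6. There, 625 single-gene values kept their side of the threshold, 34 lost their call, 10 gained one and none that was called reversed. The tally does not count every fit that left out a library, so it understates the lost calls. Of the 12 such fits, the averaged Ercc6l2 call was kept in 1. The Parp1 call among transgenic islets was kept in 2, and the Lig4 call between NOD and B10 in 6. The members called numbered 2 with the acinar covariate among transgenic islets (Xrcc6 and Dclre1c), 1 between NOD and B10 with the acinar covariate, with the islet number and at equal depth, and 1 for the transgene in B10 with no filter (Dclre1c). Leaving out each library gave 1 to 2 members among transgenic islets (2 without B10_insHEL replicate 2), 1 to 3 between NOD and B10 (1 without NOD replicate 2 or any 1 B10 library), 1 averaged, 0 to 1 for the transgene in B10 (1 without B10_insHEL replicate 2), and 0 for the transgene in NOD and for the interaction.

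Genes called over the whole table numbered 1850 among transgenic islets (1220 at equal depth), 4353 between NOD and B10 (1220 with the acinar covariate, 2688 with the islet number, 2629 at equal depth) and 5107 averaged (2189 with the acinar covariate, 3274 at equal depth). They numbered 1052 for the transgene in B10 (246 with the acinar covariate, 578 with the islet number, 599 at equal depth), 1084 in NOD (494 at equal depth) and 9 for the interaction (83 with DESeq2, 161 with no filter, 52 with the acinar covariate, 4 with the islet number). Leaving out a library gave 1344 to 1978, 2868 to 4863, 4301 to 5245, 428 to 1566, 107 to 1522 and 2 to 162 in the same order. The cause of these shifts was not tested, except that thinning leaves fewer counts by construction.

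Deviations of same-numbered libraries from their group means correlated at -0.114 to 0.0807, so no pairing by replicate number was seen. Differently numbered libraries were not set beside them, and a shared batch was not tested. With the replicate block, 1857, 4263, 5023, 1032, 961 and 8 genes were called, and 1, 2, 1, 0, 0 and 0 members, Lig4 between NOD and B10 having an adjusted p of 0.0614. Depth limits Nhej1 most, with 5 to 37 counts per library.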
